A study of Mus musculus with 18 samples.

Results

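The 10 genes described here encode the nuclear receptors of the PPAR family (Ppara, Ppard and Pparg), their RXR partners (Rxra and Rxrb), the estrogen-related receptors (Esrra, Esrrb and Esrrg) and the PGC-1 coactivators (Ppargc1a and Ppargc1b). They were chosen by gene symbol, with earlier results of these data known, and are 10 of the 21772 genes tested and of the 55414 genes counted. PPARs are receptors for fatty acids and their derivatives. They bind DNA together with an RXR and switch on genes of fatty acid uptake, storage and oxidation, Ppard being the form best known in skeletal muscle. The estrogen-related receptors bind no known natural hormone and act on genes of mitochondrial respiration, and the PGC-1 coactivators bind to both kinds of receptor and raise the activity of their targets in exercised or fasted muscle.

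RNA was measured in C2C12 myotubes, muscle fibers formed in culture by an established line of mouse myoblasts. Confluent myoblasts received non-targeting siRNA (siNtc), an siRNA pool against Erk3 (siErk3) or an siRNA pool against Mk5 (siMk5), the kinases encoded by Mapk6 and Mapkapk5, and were differentiated for 6 days. After that, for 16 h, the medium had no serum and held 0.5 mM palmitic acid bound to BSA (PA) or BSA alone (BSA), so that all 6 groups shared the transfection and the change to medium without serum. Each group has 3 libraries, 18 in all, and since it is not stated whether these were separate cultures, p-values measure the spread between these libraries, which may be technical.

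The libraries held 13041979 to 28496727 counted read pairs, and the lowest total belonged to siNtc BSA replicate 1. The 18S ribosomal RNA gene Rn18s-rs5 took 1.5% to 12.87% of the counts. Its share was 8.39% to 12.87% in siMk5 BSA and 1.71% to 6.69% in siMk5 PA, and 1.5% to 2.96% in siErk3 BSA and 3.74% to 6.77% in siErk3 PA, so it moved with PA in opposite directions in these conditions. In siNtc it was 2.56% to 7.17% in BSA and 5.32% to 6.43% in PA. Among the BSA libraries, those of siMk5 thus lay above all others, and in PA the 3 silencing conditions overlapped. The 10 myotube markers, with Acta1, Myh3 and Ttn among them, summed to 12663 to 15683 CPM in the BSA libraries and to 11726 to 13564 CPM in the PA libraries. CPM are counts of read pairs scaled to the library size by the TMM method. The markers of myoblasts or undifferentiated reserve cells summed to 834 to 897 CPM in BSA and to 335 to 448 CPM in PA, and the proliferation genes Mki67 and Top2a carried most of this sum. The 4 fibroblast markers summed to 454 to 538 CPM in BSA and to 183 to 288 CPM in PA, nearly all of it from Pdgfrb. The 6 adipocyte markers stayed at or below 0.143 CPM in every library, with Plin1 and Cfd at 0 counts, and the 4 leukocyte markers at or below 1.86 CPM, with Adgre1 at 0. The part of these marker changes in the results on PA was not tested. In such bulk RNA, fewer cells of a kind and less RNA per cell cannot be told apart.

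Silencing was seen for Mapk6 and less clearly for Mapkapk5. In BSA, Mapk6 had 135, 129 and 133 CPM in the siNtc libraries and 56.6, 60.3 and 55.2 CPM in the siErk3 libraries, and in PA it had 215, 236 and 244 CPM with siNtc and 131, 119 and 109 CPM with siErk3. The log2 fold changes were -1.21 in BSA and -0.95 in PA. Mapkapk5 had 2.53, 2.54 and 2.32 CPM in siNtc BSA, 1.18, 2.01 and 1.7 CPM in siMk5 BSA, 2.52, 3.92 and 3.28 CPM in siNtc PA and 2.43, 2.33 and 2.17 CPM in siMk5 PA. Each siMk5 library lay below the siNtc libraries of its medium, with log2 fold changes of -0.61 in BSA and -0.49 in PA that did not pass the adjustment (adjusted p = 0.469 in each, edgeR). Of the exonic bases of Mapkapk5, 56.4% also lie in exons of Gm42878 on the same strand, so its counts are uncertain.

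Under control conditions, the receptor partners and Esrra were the most abundant members. Compared per length, as CPM per kb of exon, the siNtc BSA libraries held 13.4 ± 1.28 of Rxra, 9.88 ± 0.925 of Rxrb, 7.51 ± 0.17 of Esrra and 6.21 ± 0.416 of Ppard (SD, n = 3 each). Ppargc1b followed with 2.77 ± 0.463 CPM per kb and Pparg with 1.66 ± 0.151 (SD, n = 3 each). The other members were far lower, at 0.312 ± 0.0494 CPM per kb for Esrrb, 0.11 ± 0.0334 for Ppargc1a, 0.049 ± 0.0489 for Ppara and 0.0271 ± 0.0182 for Esrrg (SD, n = 3 each). In this order the libraries of neighbouring genes overlapped for Ppargc1a and Ppara and for Ppara and Esrrg, and for no other neighbours.

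With PA the order changed. In siNtc PA, Ppard reached 12 ± 0.841 CPM per kb and lay between Rxra with 12.4 ± 0.393 and Rxrb with 10.8 ± 0.135 (SD, n = 3 each), its libraries overlapping those of Rxra. Pparg, with 2.07 to 2.6 CPM per kb over the siNtc PA libraries, then stood above Ppargc1b with 1.88 to 2.05. In siErk3 PA and siMk5 PA the libraries of Pparg and Ppargc1b overlapped, with Pparg at 2.12 to 2.33 and 2.15 to 2.76 CPM per kb and Ppargc1b at 2.19 to 2.6 and 1.7 to 2.6.

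Within each family, 1 gene supplied most of the RNA except among the RXRs. Ppard made up 78.4% ± 2.1 of the PPAR level per length in siNtc BSA, Pparg 21% ± 2.5 and Ppara 0.6% ± 0.59 (SD, n = 3 each). Esrra made up 95.7% ± 0.7 of the ERR level and Ppargc1b 96.1% ± 1.3 of the PGC-1 level in the same libraries (SD, n = 3 each). The RXR level was shared, with 57.5% ± 0.51 from Rxra and 42.5% ± 0.51 from Rxrb (SD, n = 3 each). With PA, the summed PPAR level was 14.5 ± 1.14 CPM per kb in siNtc, against 7.92 ± 0.395 in BSA, 14.6 ± 1.51 against 8.1 ± 0.0468 in siErk3 and 14 ± 0.54 against 7.88 ± 0.308 in siMk5 (SD, n = 3 each). Summed ERR levels were 7.67 to 8.1 CPM per kb in all group means. The summed PGC-1 level was 2.86 to 3.05 CPM per kb in the group means of BSA and 2.03 to 2.47 in those of PA.

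**Figure D1:**
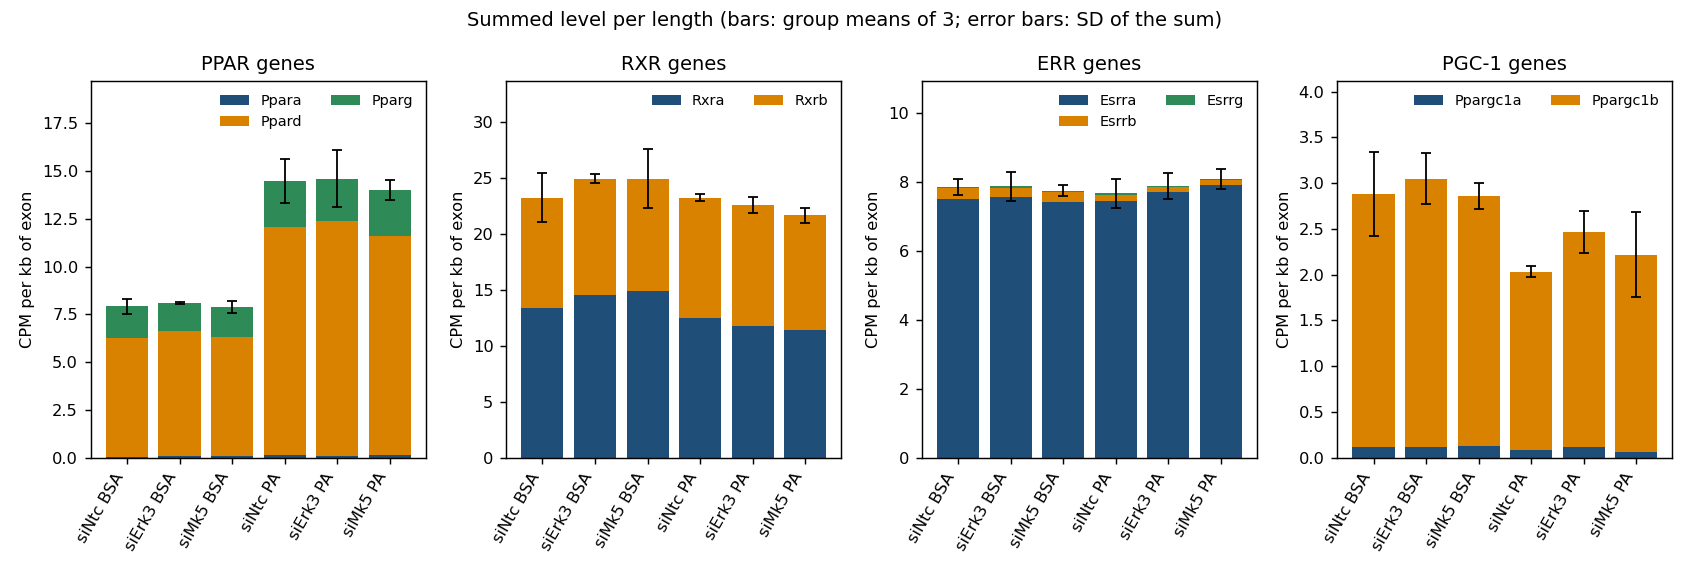
Summed level of each gene family per length (y axis, CPM per kb of exon) in the 6 groups (x axis), with bars stacked from the group means of 3 libraries and error bars showing the SD of the sum. The PPAR bars stand at 7.88 to 8.1 in BSA and at 14 to 14.6 in PA, most of each bar being Ppard, while the ERR bars stay between 7.67 and 8.1.

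The comparison of PA with BSA asked how the myotubes responded to a load of palmitic acid. Ppard and Pparg rose in all 3 silencing conditions, and Esrrb fell in all 3. Ppara, Rxrb, Esrra and Esrrg did not pass the test in any, Ppara and Esrrg having at most 12 counts per library. A gene was called changed with an adjusted p below 0.05 from edgeR's quasi-likelihood test, adjusted by the Benjamini-Hochberg method over all genes tested, and a change of more than 1.3-fold, up or down. In siNtc, 2 of the 10 members rose and 2 fell, where 15.5% of all genes tested rose and 15.1% fell. In siErk3, 2 rose and 1 fell (15.8% and 16.3% of all genes). In siMk5, 2 rose and 3 fell (15.1% and 14.6% of all genes). By the adjusted p alone, 4, 5 and 6 members passed in siNtc, siErk3 and siMk5, against 45.1%, 47.1% and 44.3% of all genes. PA thus moved a large share of the transcriptome, and the counts of members are near that background.

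Ppard (ENSMUSG00000002250, chr17:28451674-28520448 of GRCm39, forward strand) was the member with the smallest adjusted p. In siNtc it had 43.1, 49 and 47.9 CPM in the BSA libraries and 82.8, 91.9 and 95 CPM in the PA libraries. In siErk3 it had 50.9, 48.7 and 48.6 CPM in BSA and 104.6, 91.8 and 81.8 CPM in PA. In siMk5 it had 45.8, 46.8 and 47.6 CPM in BSA and 91.6, 85.4 and 82 CPM in PA. All 9 PA libraries lay above all 9 BSA libraries, with a wide gap between them. The fold change was 1.92 in siNtc (95% interval 1.74 to 2.11, adjusted p = 7.41e-13 from edgeR), 1.88 in siErk3 (1.71 to 2.07, adjusted p = 6.13e-13 from edgeR) and 1.85 in siMk5 (1.68 to 2.04, adjusted p = 2.67e-12 from edgeR). On the log2 scale these are 0.94, 0.91 and 0.89, and over the alternatives of processing they ran from 0.80 to 0.99.

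Pparg (ENSMUSG00000000440, chr6:115337912-115467360 of GRCm39, forward strand), the form best known for its part in fat cells, rose by a smaller factor from a lower level. In siNtc it had 5.27, 5 and 4.4 CPM in BSA and 6.12, 7.48 and 7.68 CPM in PA. In siErk3 it had 3.84, 4.34 and 4.69 CPM in BSA and 6.26, 6.88 and 6.35 CPM in PA. In siMk5 it had 4.4, 4.23 and 5.11 CPM in BSA and 6.83, 6.34 and 8.15 CPM in PA. No PA library was as low as the highest BSA library. The fold change was 1.46 in siNtc (95% interval 1.22 to 1.74, adjusted p = 0.000524 from edgeR), 1.51 in siErk3 (1.27 to 1.8, adjusted p = 0.000113 from edgeR) and 1.55 in siMk5 (1.3 to 1.85, adjusted p = 8.52e-05 from edgeR). The adipocyte markers were at or near 0 counts in the same libraries.

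Ppara (ENSMUSG00000022383), the form best known in liver, was barely detected, with 0 to 12 counts in each library and 132 over all 18. In siNtc it had 0, 0.375 and 0.189 CPM in BSA and 0.315, 0.502 and 0.404 CPM in PA, and the groups overlapped. The library at 0 counts allows a level of up to 0.211 CPM, the value of 3 counts there. The log2 fold changes with PA were 0.90 in siNtc (95% interval -0.20 to 1.99), -0.19 in siErk3 (-1.24 to 0.86) and 0.24 in siMk5 (-0.70 to 1.18), and none passed. Without siNtc BSA replicate 2, the change in siNtc was 1.79 and passed (adjusted p = 0.0398 from edgeR).

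Since Ppard and Pparg rose together, the sequence before their start sites is shown here, 250 bases for each start in the RefSeq promoter table of GRCm38.p6, which is an older build than that of the counts. The table lists 1 start for Ppard and 3 for Pparg, and counts per gene do not tell which of the latter was used. Read in the direction of the gene, they are, with matches to AGGTCA and GGGCGG on either strand in capitals:
Ppard, chr17:28232504-28232753, forward strand: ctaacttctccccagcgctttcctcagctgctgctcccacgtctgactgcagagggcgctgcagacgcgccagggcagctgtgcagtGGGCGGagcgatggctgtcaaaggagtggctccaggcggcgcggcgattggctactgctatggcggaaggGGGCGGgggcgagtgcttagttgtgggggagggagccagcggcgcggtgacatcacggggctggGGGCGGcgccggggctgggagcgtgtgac
Pparg, start 1, chr6:115360894-115361143, forward strand: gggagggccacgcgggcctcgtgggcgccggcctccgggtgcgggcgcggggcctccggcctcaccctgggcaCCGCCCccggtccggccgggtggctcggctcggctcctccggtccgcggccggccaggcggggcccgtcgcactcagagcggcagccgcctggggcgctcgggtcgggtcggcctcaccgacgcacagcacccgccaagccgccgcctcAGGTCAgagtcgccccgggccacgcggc
Pparg, start 2, chr6:115362099-115362348, forward strand: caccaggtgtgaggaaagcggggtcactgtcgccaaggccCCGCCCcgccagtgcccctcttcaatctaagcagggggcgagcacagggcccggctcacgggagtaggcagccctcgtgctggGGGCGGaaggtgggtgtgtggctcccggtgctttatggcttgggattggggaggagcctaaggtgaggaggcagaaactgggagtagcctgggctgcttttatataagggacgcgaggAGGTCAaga
Pparg, start 3, chr6:115421816-115422065, forward strand: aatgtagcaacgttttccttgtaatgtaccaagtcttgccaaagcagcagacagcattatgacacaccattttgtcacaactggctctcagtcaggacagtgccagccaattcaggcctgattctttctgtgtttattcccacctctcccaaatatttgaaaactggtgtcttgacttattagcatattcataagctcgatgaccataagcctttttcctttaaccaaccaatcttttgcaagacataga

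AGGTCA is the core of the sites that nuclear receptors of this kind bind, and GGGCGG is the GC box bound by factors of the Sp family. The sequence before Ppard held 3 matches to GGGCGG and 0 to AGGTCA. Starts 1 and 2 of Pparg each held 1 match to AGGTCA, with 1 and 2 matches to GGGCGG, and start 3 held neither. Members that were not called higher with PA held them too. GGGCGG had 2 matches before Ppara, 3 before start 1 of Rxra, 2 and 3 before the starts of Rxrb and 2 before Esrra. Before starts 3 and 4 of Esrrg it had 2 and 1. It was absent before Ppargc1a, Esrrb, start 2 of Rxra and starts 1 and 2 of Esrrg. AGGTCA had 2 matches before start 2 of Rxra. A part of these motifs in the rise was not tested. Of the 32851 sequences of this length in the table, 14% held AGGTCA and 32.7% held GGGCGG. The direct repeat of AGGTCA with 1 base between the copies, the site of PPAR with RXR, was in 0.0335% of the sequences, and the extended site TCAAGGTCA of estrogen-related receptors, which contains AGGTCA, was in 0.387%. Neither was in any of the 17 sequences of the 9 members that the table holds. GC made up 69.6% of the bases before Ppard and 82.4%, 63.6% and 40.8% of those before the 3 starts of Pparg. The median over all sequences of the table was 52.4%.

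**Figure D2:**
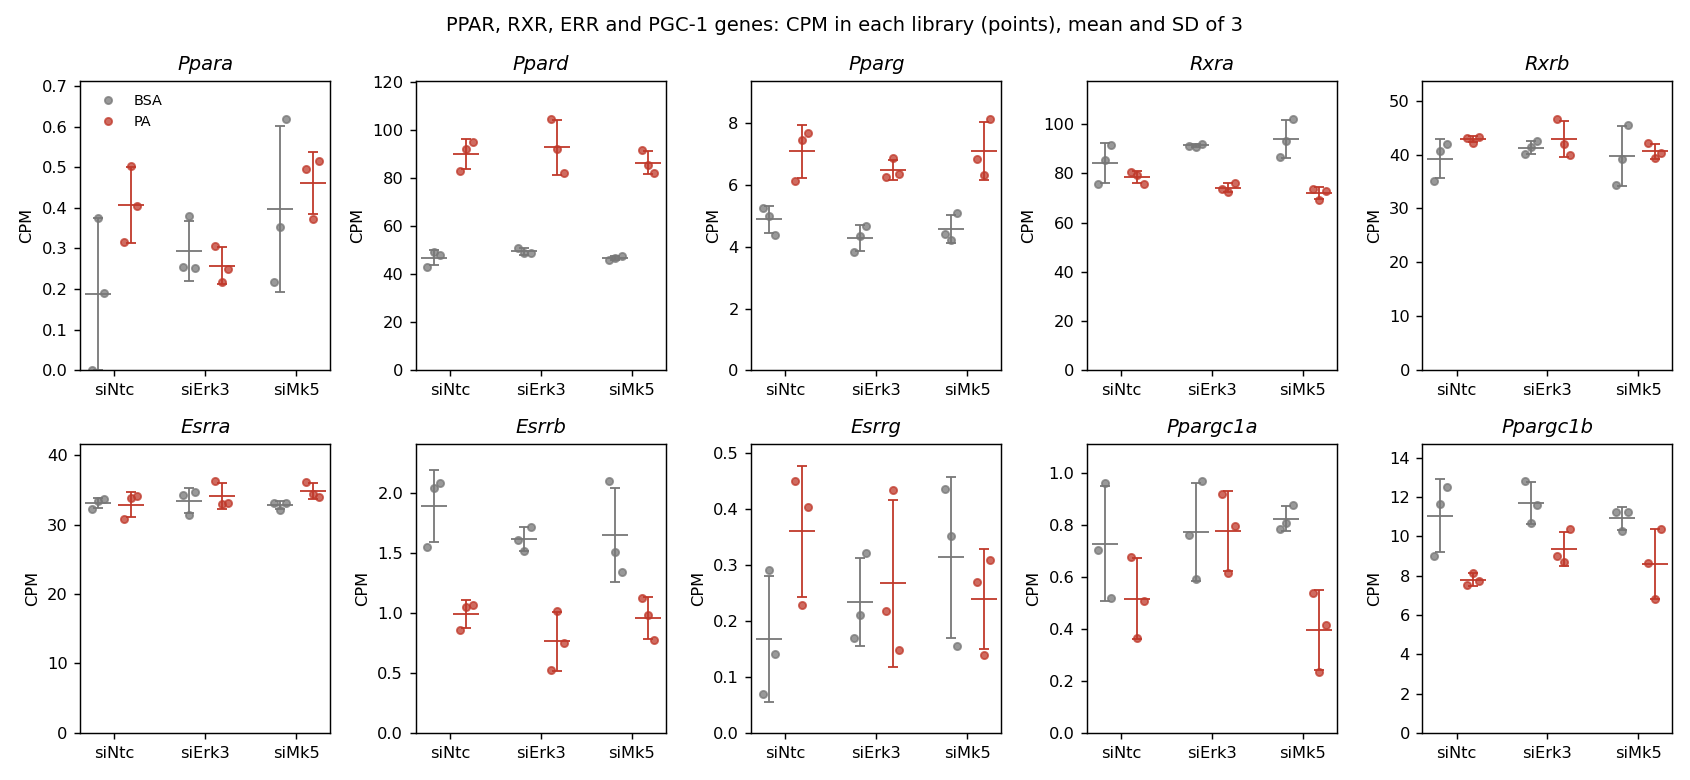
Level of each of the 10 genes (y axis, CPM from 0, a scale for each gene) by silencing (x axis) in BSA (grey) and PA (red), with 1 point per library, the mean as a dash and the SD of 3 libraries as a bar. Ppard points lie at 43.1 to 50.9 in BSA and at 81.8 to 104.6 in PA without overlap, while those of Esrra lie at 30.8 to 36.2 throughout.

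The RXRs form the other part of the receptor pair. Rxra (ENSMUSG00000015846, chr2:27566452-27652969 of GRCm39, forward strand) had 75.6, 85.3 and 91.5 CPM in siNtc BSA and 80.4, 79.3 and 75.6 CPM in siNtc PA. In siErk3 it had 91.3, 90.8 and 92.1 CPM in BSA and 73.7, 72.5 and 76.2 CPM in PA. In siMk5 it had 86.7, 93.1 and 102 CPM in BSA and 73.6, 69.3 and 72.9 CPM in PA. The groups overlapped in siNtc and not in siErk3 or siMk5. The log2 fold change was -0.11 in siNtc (SE 0.0583, adjusted p = 0.147 from edgeR), -0.30 in siErk3 (SE 0.0572, adjusted p = 4.26e-05 from edgeR), which is under the fold criterion, and -0.38 in siMk5 (SE 0.0581, adjusted p = 1.57e-06 from edgeR), which is just past it. The call in siMk5 was lost without siMk5 BSA replicate 3 (-0.32), without siMk5 PA replicate 2 (-0.36) and with the 18S share as a covariate (-0.34). Tested as an interaction, the PA effect on Rxra differed from that in siNtc by -0.28 in siMk5 (unadjusted p = 0.002, adjusted p = 0.255 from edgeR) and by -0.20 in siErk3 (unadjusted p = 0.0226, adjusted p = 0.723 from edgeR), so the difference between silencing conditions did not pass.

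Rxrb (ENSMUSG00000039656) stayed between 34.4 and 46.6 CPM over all 18 libraries. Its log2 fold change with PA was 0.12 in siNtc (95% interval -0.04 to 0.27), 0.05 in siErk3 (-0.10 to 0.20) and 0.04 in siMk5 (-0.12 to 0.19), and each interval excludes a fold change of 1.3. In the group means the share of Rxra in the RXR level per length was 57.5% to 60% in BSA and 52.2% to 53.6% in PA. The muscle form Rxrg, counted here among the partners and singled out after its values were seen, had 0.492, 0.375 and 0.331 CPM in siNtc BSA and 0.045, 0.137 and 0.101 CPM in siNtc PA, a log2 fold change of -1.99 (adjusted p = 0.00832 from edgeR). These are 7 to 9 counts per library in BSA and 1 to 3 in PA. Its log2 fold change was -0.81 in siErk3 and -0.75 in siMk5, and neither passed (adjusted p = 0.127 and 0.298 from edgeR).

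Among the estrogen-related receptors, Esrra (ENSMUSG00000024955, chr19:6888345-6899208 of GRCm39, reverse strand), the main form here, held its level. It had 32.3, 33.4 and 33.8 CPM in siNtc BSA and 30.8, 33.8 and 34.1 CPM in siNtc PA. Over all 18 libraries it ran from 30.8 to 36.2 CPM. The log2 fold change with PA was -0.01 in siNtc (95% interval -0.14 to 0.11), 0.03 in siErk3 (-0.09 to 0.15) and 0.09 in siMk5 (-0.03 to 0.21), and all 3 intervals exclude a fold change of 1.3. Of its 4414 exonic bases, 91 are shared with Mir6990 on the same strand.

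Esrrb (ENSMUSG00000021255, chr12:86407891-86568402 of GRCm39, forward strand), known from stem cells and the inner ear, was low and fell with PA. In siNtc it had 1.55, 2.04 and 2.08 CPM in BSA and 0.855, 1.05 and 1.06 CPM in PA. In siErk3 it had 1.61, 1.52 and 1.72 CPM in BSA and 0.526, 1.01 and 0.744 CPM in PA. In siMk5 it had 2.09, 1.51 and 1.34 CPM in BSA and 1.12, 0.978 and 0.774 CPM in PA. Every PA library was below every BSA library, on 12 to 49 counts per library. The fold change was 0.514 in siNtc (95% interval 0.365 to 0.724, adjusted p = 0.00135 from edgeR), 0.481 in siErk3 (0.34 to 0.682, adjusted p = 0.000569 from edgeR) and 0.581 in siMk5 (0.409 to 0.825, adjusted p = 0.00976 from edgeR). The log2 fold change of -0.78 in siMk5 became -0.56 without siMk5 BSA replicate 1 (adjusted p = 0.109 from edgeR) and -0.49 with the 18S share as a covariate (adjusted p = 0.427 from edgeR), and did not pass in either. Esrrg (ENSMUSG00000026610), the form of oxidative muscle, had 1 to 12 counts per library. Its log2 fold changes were 0.95 (95% interval -0.20 to 2.10), 0.23 (-0.83 to 1.29) and -0.42 (-1.52 to 0.68) in siNtc, siErk3 and siMk5, and none passed.

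Of the coactivators, Ppargc1b (ENSMUSG00000033871), which encodes PGC-1 beta, was the main form and fell in siNtc. It had 8.99, 11.7 and 12.5 CPM in siNtc BSA and 7.51, 8.16 and 7.73 CPM in siNtc PA. In siErk3 it had 12.8, 10.7 and 11.6 CPM in BSA and 9.02, 8.72 and 10.4 CPM in PA. In siMk5 it had 11.3, 10.3 and 11.2 CPM in BSA and 8.67, 6.8 and 10.4 CPM in PA. The groups overlapped in siMk5 alone, where 1 PA library reached 10.4 CPM. The fold change was 0.695 in siNtc (95% interval 0.584 to 0.826, adjusted p = 0.000597 from edgeR), 0.797 in siErk3 (0.679 to 0.935, adjusted p = 0.017 from edgeR) and 0.785 in siMk5 (0.662 to 0.931, adjusted p = 0.0178 from edgeR), and the last 2 are under the fold criterion. On the log2 scale these are -0.53, -0.33 and -0.35. The criterion was met in siErk3 without siErk3 BSA replicate 2 (-0.40), without siErk3 PA replicate 3 (-0.41) and with the 18S share as a covariate (-0.54), and in siMk5 without siMk5 BSA replicate 2 (-0.38) and without siMk5 PA replicate 3 (-0.50). With that covariate the value in siMk5 was 0.04 (adjusted p = 0.893 from edgeR). The interaction terms were 0.20 for siErk3 and 0.18 for siMk5 (adjusted p = 0.894 and 0.844 from edgeR), so the PA effect was not shown to differ between silencing conditions.

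Ppargc1a (ENSMUSG00000029167, chr5:51611592-51725068 of GRCm39, reverse strand), which encodes PGC-1 alpha, the coactivator best known from exercised muscle, had 5 to 27 counts per library. In siNtc it had 0.702, 0.958 and 0.52 CPM in BSA and 0.675, 0.365 and 0.505 CPM in PA. In siErk3 it had 0.761, 0.59 and 0.966 CPM in BSA and 0.92, 0.615 and 0.794 CPM in PA. In siMk5 it had 0.785, 0.805 and 0.877 CPM in BSA and 0.539, 0.233 and 0.413 CPM in PA. The groups separated in siMk5 and overlapped in siNtc and siErk3. The log2 fold change was -0.51 in siNtc (95% interval -1.23 to 0.20), -0.02 in siErk3 (-0.63 to 0.59) and -1.04 in siMk5 (-1.77 to -0.31, adjusted p = 0.0179 from edgeR), and Ppargc1a was called in siMk5. This call was lost without siMk5 PA replicate 2 (-0.77, adjusted p = 0.112 from edgeR) and with the 18S share as a covariate (-0.95, adjusted p = 0.249 from edgeR). In PA, siErk3 and siMk5 libraries did not overlap, with a log2 difference of 0.94 (unadjusted p = 0.0127, adjusted p = 0.285 from edgeR). The interaction with PA was -0.53 for siMk5 (95% interval -1.56 to 0.51), so the effect of PA on Ppargc1a was not shown to differ from that in siNtc.

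**Figure D3:**
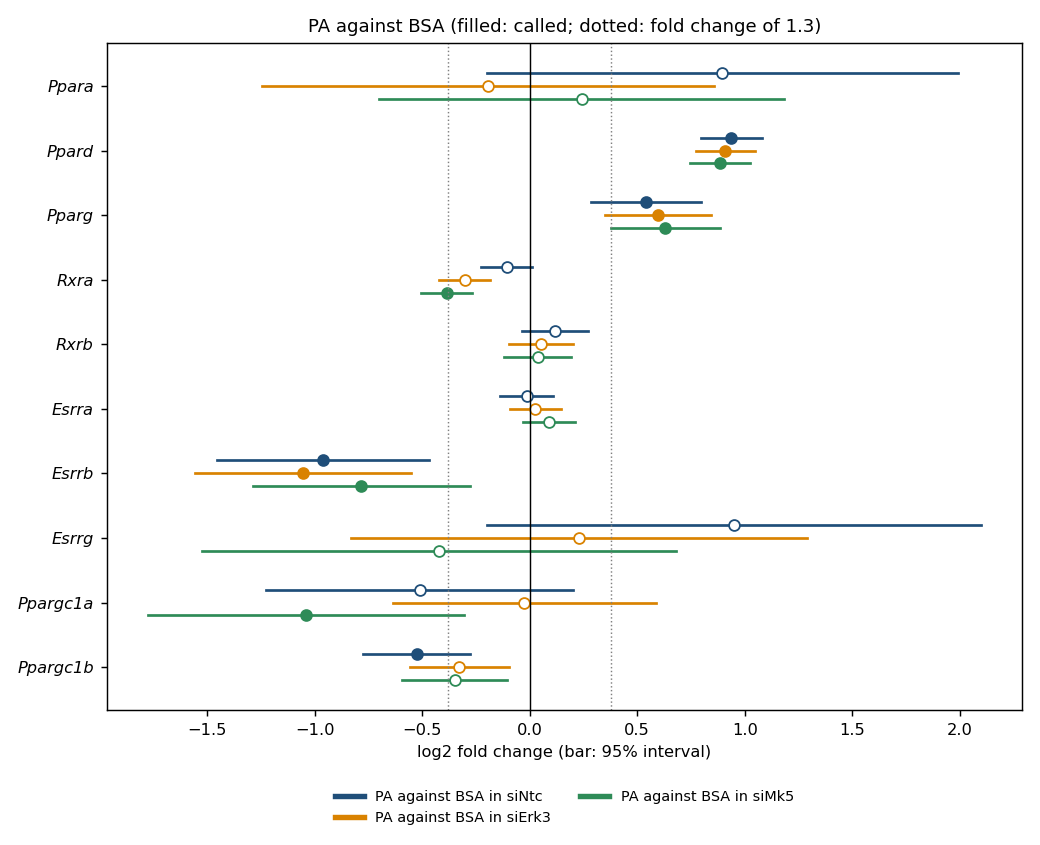
Effect of PA on each gene (x axis, log2 fold change of PA against BSA) in siNtc, siErk3 and siMk5, with the 95% interval as a bar, a filled point where the gene was called and dotted lines at a fold change of 1.3. Ppard is called at 0.89 to 0.94 and Pparg at 0.54 to 0.63 in all 3 conditions, Esrrb lies at -1.06 to -0.78, and the widest intervals are those of Ppara and Esrrg.

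The effect of silencing was compared within each medium. Of the 10 members, 0 were called in any of the 4 comparisons with siNtc, by edgeR or by DESeq2. At an unadjusted p below 0.05 there were 0 members for siErk3 in BSA, 1 for siErk3 in PA, 1 for siMk5 in BSA and 1 for siMk5 in PA. The share of all genes at that unadjusted p was not counted. Of all genes tested, 0.785%, 0.556%, 0.0643% and 0.547% were called in these comparisons in this order, so that a count of 0 in 10 is near the background. Both silencing conditions were set against the same siNtc libraries.

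Ppard differed from siNtc by log2 fold changes of 0.07 and 0.05 with siErk3 and of 0.00 and -0.06 with siMk5, in BSA and PA, and the 95% intervals reached from -0.19 to 0.22. Pparg differed by -0.17 and -0.12 with siErk3 and by -0.09 and 0.00 with siMk5, with intervals from -0.44 to 0.24. A fold change of 1.3, which is 0.38 on the log2 scale, lay outside every interval of Ppard, Rxra, Rxrb and Esrra, so changes of that size were excluded for these genes by their intervals. The single members with an unadjusted p below 0.05 were Ppargc1b with siErk3 in PA (log2 fold change 0.26, unadjusted p = 0.0452) and Rxra with siMk5 (0.15 in BSA, unadjusted p = 0.013, and -0.13 in PA, unadjusted p = 0.0405), and their adjusted p were 0.586, 0.596 and 0.713 from edgeR. Esrrb differed by -0.25 and -0.34 with siErk3 and by -0.21 and -0.03 with siMk5, with intervals from -0.91 to 0.53. A change of 1.3-fold was not excluded for Esrrb, nor in every comparison for Pparg and Ppargc1b. For Ppara, Esrrg and Ppargc1a the intervals were wide, the widest being that of siErk3 against siNtc in BSA for Esrrg with -0.84 to 1.57, and a change of 1.3-fold could not have been seen at this depth.

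**Figure D4:**
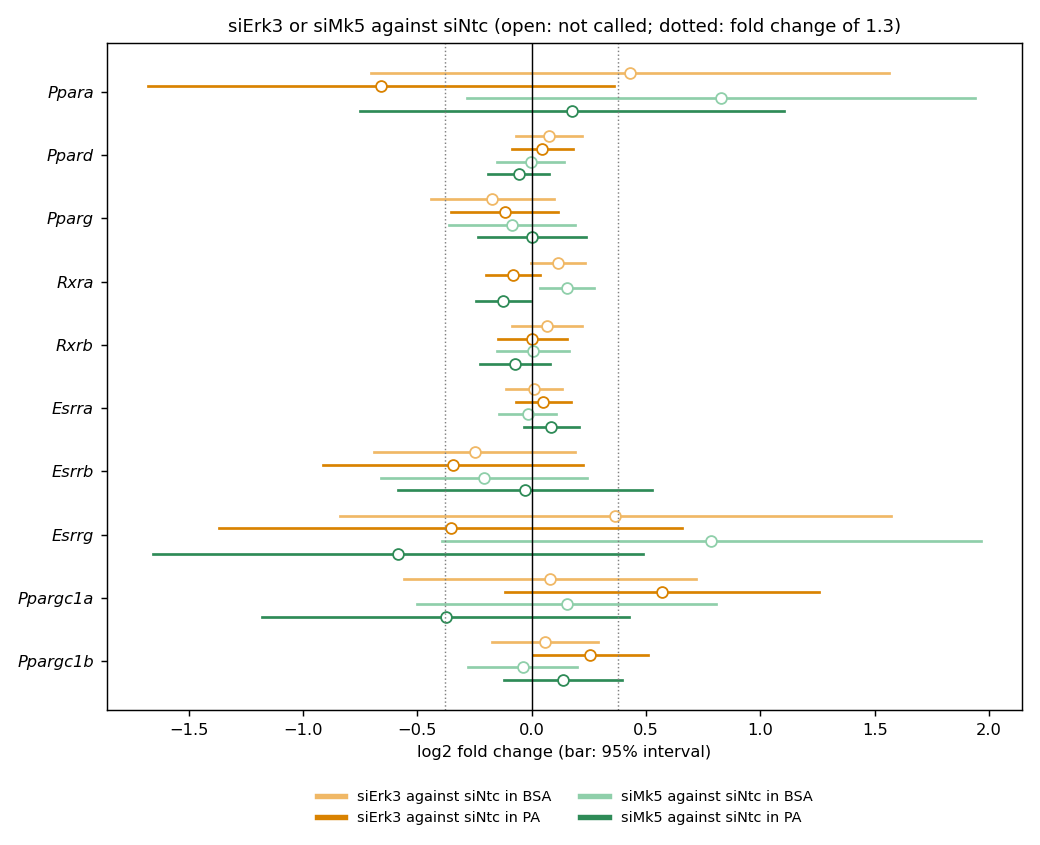
Effect of siErk3 and of siMk5 against siNtc on each gene (x axis, log2 fold change) in BSA and in PA, with the 95% interval as a bar and dotted lines at a fold change of 1.3. All points are open, since 0 of the 10 genes were called, and the intervals of Ppard, Rxra, Rxrb and Esrra stay between the dotted lines.

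Set directly against each other, siErk3 and siMk5 libraries differed in 0 members in BSA and 0 in PA by edgeR and by DESeq2, where 0.588% and 1.03% of all genes were called. At an unadjusted p below 0.05 there were 0 members in BSA and 1, Ppargc1a, in PA. The interaction terms, which test whether silencing altered the response to PA, were called for 0 members with siErk3 and 0 with siMk5 by either tool, and for 0.0367% and 0.211% of all genes. The member at an unadjusted p below 0.05 was Rxra in each. For these unadjusted counts, too, the share of all genes was not counted. For Ppard the interaction was -0.03 with siErk3 (95% interval -0.22 to 0.17) and -0.05 with siMk5 (-0.25 to 0.15), and for Pparg 0.05 (-0.30 to 0.41) and 0.09 (-0.27 to 0.45).

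Among the genes that PPARs are known to act on, most of those called with PA were higher. Of the 30 PPAR target genes listed, 27 had enough counts to be tested. With PA, 10 of the 27 rose and 0 fell in siNtc, 9 rose and 1 fell in siErk3, and 11 rose and 0 fell in siMk5. Of all genes tested, 15.5%, 15.8% and 15.1% rose and 15.1%, 16.3% and 14.6% fell in these conditions. The median log2 fold change of the list was 0.27, 0.26 and 0.36, beside -0.03, -0.01 and -0.01 over all genes tested. Angptl4, a secreted inhibitor of lipoprotein lipase, had 21.4, 24.3 and 23.8 CPM in siNtc BSA and 391, 399 and 404 CPM in siNtc PA. Its log2 fold change was 4.09, 3.95 and 3.86 in siNtc, siErk3 and siMk5 (adjusted p = 2.6e-30, 1.76e-30 and 4.31e-30 from edgeR). Plin2, a coat protein of lipid droplets, rose by 3.03, 3.12 and 2.91 on the log2 scale, the fatty acid transporter gene Slc27a1 by 2.13, 2.33 and 2.22, and Acot2, a mitochondrial acyl-CoA thioesterase gene, by 3.15, 3.20 and 3.00. The gene that fell in siErk3 was Ehhadh, of peroxisomal oxidation, with -1.47 (adjusted p = 0.0253 from edgeR), chosen after its values were seen. That call was lost without siErk3 BSA replicate 1 (-1.16), without siErk3 BSA replicate 2 (-1.38), without siErk3 PA replicate 1 (-1.39), with the 18S share as a covariate (-1.50) and with DESeq2 (-1.53). The number that fell moved between 0 and 1 in siNtc, between 0 and 2 in siErk3 and between 0 and 1 in siMk5 over the alternatives that kept both criteria. The gene added in siNtc was Hadhb, of mitochondrial beta-oxidation, whose log2 fold change of -0.37 lay just under the fold criterion and passed it with DESeq2 (-0.38), DESeq2 size factors (-0.38) and filterByExpr (-0.39), and without siNtc BSA replicate 1 (-0.39) or 3 (-0.41) or siNtc PA replicate 1 (-0.39) or 2 (-0.39). In siErk3, Hadhb passed without siErk3 BSA replicate 2 (-0.41) and without siErk3 PA replicate 2 (-0.38) or 3 (-0.42), and Acot1, an acyl-CoA thioesterase gene, with no filter (-0.47) and with only the groups compared (-0.48). In siMk5, Acot1 passed without siMk5 PA replicate 2 (-0.85) and Ehhadh without siMk5 BSA replicate 3 (-1.59). By the adjusted p alone, 15, 14 and 15 genes of the list rose and 5, 6 and 5 fell, where 45.1%, 47.1% and 44.3% of all genes passed, both directions together.

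The genes that PGC-1 and the estrogen-related receptors act on were called in both directions. Of 28 listed, all tested, 5 rose and 2 fell in siNtc, 5 rose and 1 fell in siErk3, and 4 rose and 1 fell in siMk5. Beside the same shares of all genes tested, 15.5%, 15.8% and 15.1% higher and 15.1%, 16.3% and 14.6% lower, the numbers that rose are near the background and those that fell are below it. This low number that fell held only with the fold criterion. By the adjusted p alone, 9, 8 and 6 rose and 10, 7 and 7 fell. In siNtc, 3 rose without siNtc BSA replicate 1, where Cox6a2 and Kyat3 were lost, and 1 fell without siNtc BSA replicate 3, where Ckmt2 was lost. A second gene fell in siErk3 without siErk3 PA replicate 3, Sdha, and in siMk5 with only the groups compared, Mfn2. The median log2 fold change of the list was -0.04, -0.04 and -0.01. Vegfa, the angiogenic growth factor, had 83.2, 85.7 and 89.1 CPM in siNtc BSA and 321, 338 and 359 CPM in siNtc PA, with log2 fold changes of 1.98, 1.87 and 2.12. Cycs, which encodes cytochrome c, rose by 0.43, 0.51 and 0.48, and Tfam, a factor that maintains mitochondrial DNA, by 0.53, 0.53 and 0.51. Fndc5, which encodes the precursor of irisin, had 32, 32.3 and 36.7 CPM in siNtc BSA and 17, 19.7 and 18.2 CPM in siNtc PA, with log2 fold changes of -0.88, -0.78 and -0.67. These 4 genes were called in all 3 conditions.

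Of 30 partners and regulators, 6 rose and 6 fell in siNtc, 6 rose and 5 fell in siErk3, and 4 rose and 5 fell in siMk5, which is near the shares of all genes given for the other lists, 15.1% to 15.8% higher and 14.6% to 16.3% lower. The medians were 0.11, 0.08 and 0.07. Pprc1, the PGC-1 related coactivator that is not a member of the set above, had 62.5, 60.1 and 61.9 CPM in siNtc BSA and 103, 117 and 122 CPM in siNtc PA, with log2 fold changes of 0.89, 0.81 and 0.82. Thra, which encodes a thyroid hormone receptor, fell by 0.85, 0.92 and 0.90, and Mef2a, a muscle transcription factor, by 0.46, 0.46 and 0.52. Mef2c, of the same family, fell by 0.60, 0.59 and 0.45, and its call in siMk5 was lost with the 18S share as a covariate (-0.35, under the fold criterion). Ncoa3, another nuclear receptor coactivator, rose by 0.60, 0.65 and 0.64 on the same scale.

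**Figure D5:**
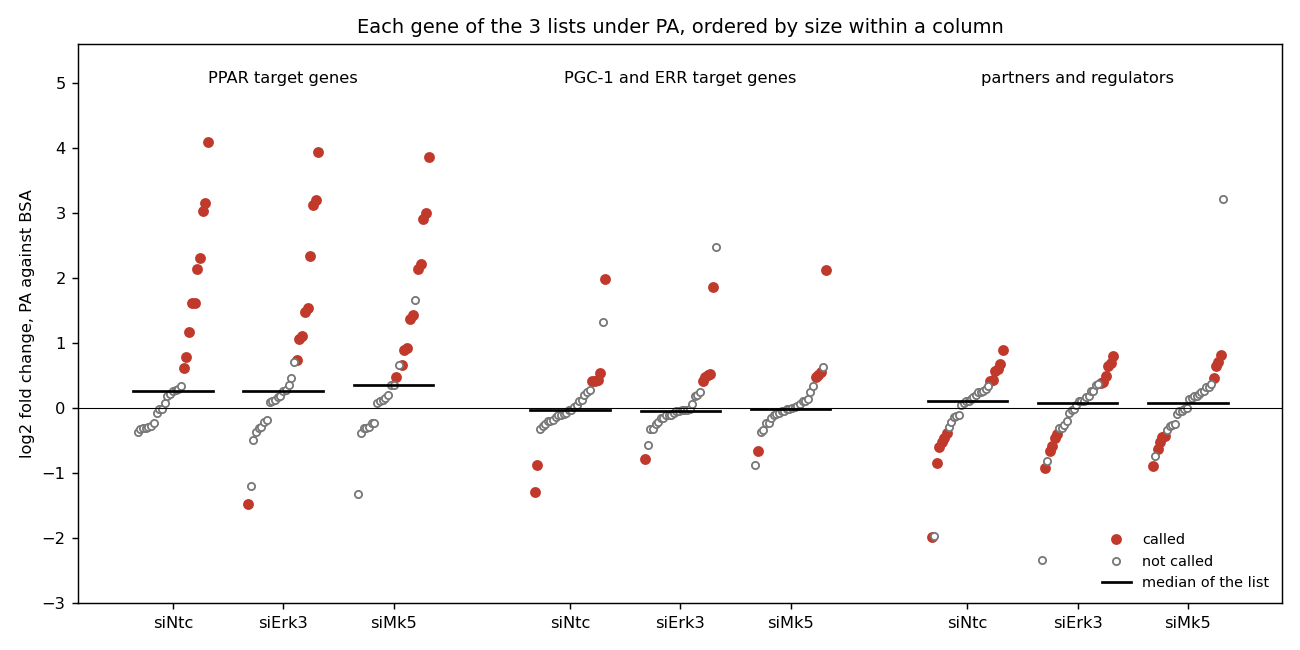
Log2 fold change of PA against BSA (y axis) for every tested gene of the 3 lists in siNtc, siErk3 and siMk5 (x axis), with red points for called genes, open points for the others and a line at the median of the list. The PPAR target genes reach 4.09 and have medians of 0.26 to 0.36, while the medians of the other lists lie between -0.04 and 0.11.

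Silencing changed few of these genes, of which 27, 28 and 30 were tested in the 3 lists. Called were 0 with siErk3 in BSA, 1 with siErk3 in PA, 1 with siMk5 in BSA and 0 with siMk5 in PA. Of all genes tested, 0.785%, 0.556%, 0.0643% and 0.547% were called. At an unadjusted p below 0.05 from edgeR there were 11, 12, 8 and 6 genes of the lists. The shares of all genes just given are those called by both criteria, so they are no background for these unadjusted counts. The share of all genes at that unadjusted p was not counted. In the 4 comparisons with siNtc, the genes called were Cd36, a fatty acid transporter gene, which rose with siErk3 in PA (log2 fold change 0.41, adjusted p = 0.018 from edgeR), and Mb, the myoglobin gene, which fell with siMk5 in BSA (log2 fold change -0.40, adjusted p = 4.16e-05 from edgeR). Cd36 had 41.6, 38.3 and 41.6 CPM in siNtc PA and 59.7, 48.4 and 53 CPM in siErk3 PA. Mb had 388, 388 and 384 CPM in siNtc BSA and 309, 301 and 270 CPM in siMk5 BSA. Cd36 was also higher in siErk3 than in siMk5 in BSA, by 0.46 (adjusted p = 0.00666 from edgeR). Each of the 3 calls was lost when certain single libraries were left out. Cd36 with siErk3 in PA was lost without siNtc PA replicate 2 (0.37) and without siErk3 PA replicate 1 (0.32). Mb fell under the fold criterion alone without siMk5 BSA replicate 3 (-0.34, adjusted p = 0.000536 from edgeR). Cd36 between siErk3 and siMk5 was lost without siMk5 BSA replicate 2 (0.41) or replicate 3 (0.36) and with the 18S share as a covariate (0.14). No gene of the 3 lists was called in an interaction by edgeR, where 6 were below an unadjusted p of 0.05 for siErk3 and 8 for siMk5. Of all genes tested, 0.0367% and 0.211% were called in these interactions by both criteria, which is no background for the unadjusted counts.

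Other genes shared the pattern of the members over the 6 groups. For each member called with PA, the genes with a mean of at least 1 CPM were ranked by the root mean square difference of their centred group means of log2 CPM, over 6 groups and 18 libraries, and 12713 genes were compared. The nearest to Ppard were Zmynd19, Ncl and Ccdc137, with differences of 0.0133, 0.0149 and 0.0175. Pparg was nearest to Pigw, Slc26a6 and Fubp1 (0.0246, 0.0258 and 0.0309), Ppargc1b to Lmo7, Slc43a2 and Rapsn (0.0303, 0.0317 and 0.0334) and Rxra to Hpf1, Pofut2 and Ywhah (0.0205, 0.0236 and 0.0252). The nearest to Esrrb were Acp3, Hoxc4 and Gm36936 (0.0322, 0.0338 and 0.0405). For Ppargc1a the likeness was looser, with Gm4864, Xndc1 and Gm44710 nearest (0.0779, 0.0783 and 0.0802). Before the log2, 0.5 was added to the CPM, which shrinks differences in low genes such as Esrrb and Ppargc1a.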

How the data were processed

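RNA from 18 libraries of C2C12 myotubes in 6 groups of 3 was analysed, grouped by the sample labels. The 10 genes, the pathway lists and the marker lists were chosen with earlier results of these data known.

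The authors deposited raw counts, the read pairs assigned to each gene. Their methods state trimming with TrimGalore and alignment with STAR to GRCm39, and the reads were counted with featureCounts 2.0.0 on the reverse strand, with the Ensembl annotation of GRCm39. The submitters' processing notes name mm10, but the coordinates in the count table are those of GRCm39. Where exons of several genes lie on top of each other on a strand, pairs were not assigned, which lowers the counts of such genes. A further table, which the authors deposited with log2 values, holds in all 18 libraries the log2 of 1 plus the count over a library factor, and it was not analysed further.

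The 21772 of 55414 genes with at least 10 counts over all libraries were normalized by TMM and fitted with edgeR 4.0.16 (limma 3.58.1, R 4.3.3) by quasi-likelihood, all 6 groups together. Comparisons were PA with BSA in each silencing condition, each silencing with siNtc and with the other in each medium, and the interactions. Calls needed a Benjamini-Hochberg adjusted p (FDR) below 0.05 and a fold change above 1.3, the criteria of the methods, which used DESeq2. Values per library are TMM-scaled CPM, and CPM per kb divides them by the exon length in the count table. Intervals for 95% come from the fit. Gene symbols are from GENCODE M39.

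The alternatives were DESeq2 1.42.0, DESeq2 size factors, filterByExpr, no filter on low counts, the groups compared alone, the replicate number as a block, the adjusted p alone, the share of 18S counts as a covariate, and leaving out each library. The fit was tested on simulated counts for PA against BSA in siNtc, with 21366 genes in the fit. Of 100 genes changed by 0.5 on the log2 scale 79% were recovered, and of 100 changed by 1 on that scale 95%, with 3 calls among unchanged genes. The changed genes were drawn from those with a mean of at least 1 CPM. These rates therefore do not cover Ppara, Ppargc1a and Esrrg. Only 200 genes were changed, whereas 6661 were called in the data, so the adjustment of p was not alike.

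All members, Mapk6 and Mapkapk5 are named in each main comparison, and for each list and comparison at most 4 of the called genes, taken by the smallest adjusted p, which can differ between comparisons. Genes named outside this rule were chosen after their values were seen. Promoter sequences were read from a RefSeq table of GRCm38.p6, which holds 9 of the 10 members. The totals of 13041979 to 28496727 counts per library make the low genes the least precise. Python 3.11.15 with numpy 2.4.6, pandas 2.3.3 and matplotlib 3.10.9 served for the other steps. Protein sequences, the mouse experiments and the proteomic data were not used here.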

Additional observations from a re-analysis of the deposited data

How the results depend on the processing

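The counts of members called with PA were 4 in siNtc, 3 in siErk3 and 5 in siMk5. By the adjusted p alone, the count in siErk3 was 5, with Ppargc1b and Rxra added. With the 18S share as a covariate, the count in siMk5 was 2, Ppard and Pparg, since Ppargc1a, Rxra and Esrrb were lost. With the same covariate, the count in siErk3 was 4, with Ppargc1b added. The 18S shares of the BSA and PA libraries did not overlap in siMk5, nor did they in siErk3. In both conditions this covariate and PA can thus be told apart only in part. With 1 library left out at a time, the counts ran from 4 to 5 in siNtc, from 3 to 4 in siErk3 and from 3 to 6 in siMk5, the lowest being without siMk5 PA replicate 2. No value reversed its direction among the calls, and the silencing, direct and interaction comparisons had 0 members called under every alternative run. By the adjusted p alone, 9 PGC-1 and ERR target genes rose and 10 fell in siNtc, 8 and 7 in siErk3, and 6 and 7 in siMk5, and of the partners and regulators 13 rose and 10 fell, 12 and 9, and 13 and 9. Of all genes tested, 45.1%, 47.1% and 44.3% passed by the adjusted p alone, both directions together. The partners and regulators lay above this share in each condition. So did the PPAR target genes, of which 15, 14 and 15 rose and 5, 6 and 5 fell, of 27 tested. The PGC-1 and ERR target genes, 28 tested, lay clearly above it in siNtc, less so in siErk3 and near it in siMk5. Over all genes, the calls behind the small backgrounds moved more. They were 171 (113 to 263 over the alternatives) for siErk3 in BSA, 121 (71 to 208) for siErk3 in PA, 14 (6 to 61) for siMk5 in BSA, 128 (64 to 201) for siErk3 against siMk5 in BSA, 8 (0 to 72) for the interaction of siErk3 and 46 (2 to 130) for that of siMk5. The cause of these shifts was not tested.

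The replicate numbers were not taken to pair the libraries. Taken as deviations from the mean of the group, libraries with the same number had Pearson r from -0.58 to 0.51 over 45 pairs, with 9 of them over 0.1. The r were taken across 10740 genes, which are not independent, and 8 of 18 libraries were closest to their own number. The r farthest from 0 lay among the PA libraries of replicates 1 and 3. There siErk3 with siMk5 had 0.51 and 0.41. With siNtc, siErk3 had -0.58 and -0.58 and siMk5 had -0.49 and -0.40. For replicate 2 in PA the r were 0.00 to 0.05. The cause of this pattern was not tested. With the replicate number as a block, 4, 3 and 5 members were called with PA in siNtc, siErk3 and siMk5, and 0 in the other comparisons. The block changed no call. Ppara and Esrrg, with at most 12 counts per library, and Ppargc1a, with at most 27, set the limit of what these libraries can show.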
